A study of Mus musculus with 16 samples.

Results

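The serpin genes of the liver were taken as the rows of the deposited expression table whose gene symbol starts with Serpin and whose mean over the 16 libraries was at least 0.1 FPKM (fragments per kilobase of transcript and per size of the library, a level scaled to both). Of the 17003 genes in the table, 46 carried such a symbol and 31 passed the limit. The 15 that did not pass were *Serpini1*, *Serpina3i*, *Serpina3a*, *Serpinb1b*, *Serpinb7*, *Serpina3b*, *Serpinb2*, *Serpinb9b*, *Serpinb10*, *Serpinb1c*, *Serpine3*, *Serpina3j*, *Serpinb6c*, *Serpinb12* and *Serpinb5*. Livers were from 8 *Fgl1* LWT and 8 *Fgl1* LKO male littermates aged 8 weeks on normal chow, which the labels call fed, with 1 library per mouse. Mice of both genotypes carried floxed *Fgl1* alleles. Only the *Fgl1* LKO mice also carried Cre under the albumin promoter, which is active in hepatocytes, so that *Fgl1* was deleted there. Whether it was deleted in other liver cells was not tested here. Mice are named here by genotype and by the replicate number of their label.

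Serpins are a superfamily of proteins with a shared fold, most of which inhibit proteases by a suicide mechanism. The protease cuts an exposed reactive centre loop, the loop inserts into the body of the serpin, and the protease is trapped in a covalent complex. The residues of the loop set which protease is caught. Hepatocytes secrete most of the serpins of blood plasma, which hold in check elastase, thrombin, plasmin, kallikrein and the proteases of complement, while some members have lost inhibition and carry hormones or assist the folding of collagen. In the mouse, the genes for alpha-1-antitrypsin (*SERPINA1* in humans) and for alpha-1-antichymotrypsin (*SERPINA3* in humans) were each duplicated several times, and the copies lie side by side.

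On GRCm39 with the GENCODE vM39 annotation, all 31 genes were matched by symbol, and 17 of them lay on chromosome 12 within 800.0 kb (chr12:103580578-104380597). In order along the chromosome these were *Serpina10*, *Serpina6*, *Serpina1b*, *Serpina1d*, *Serpina1a*, *Serpina1c*, *Serpina1e*, *Serpina11*, *Serpina9*, *Serpina12*, *Serpina5*, *Serpina3c*, *Serpina3f*, *Serpina3g*, *Serpina3k*, *Serpina3m* and *Serpina3n*. The remaining 14 were spread over 8 other chromosomes, with 4 clade B genes on chromosome 13.

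The 5 *Serpina1* genes each had 1242 coding bases and were 96.3 to 98.5% identical between copies (10 pairs). The bases that encode the reactive centre loop are shown because the copies differ there: over 66 bases, pairs of copies differed at 4 to 8 positions. The stretches run from the hinge of the loop to the conserved motif that follows it, 5′ to 3′ on the minus strand, and capitals mark the 13 positions that vary among the copies. In GRCm39 each lies unbroken in coding sequence, at chr12:103820030-103820095 for *Serpina1a*, chr12:103694597-103694662 for *Serpina1b*, chr12:103861367-103861432 for *Serpina1c*, chr12:103730035-103730100 for *Serpina1d* and chr12:103913373-103913438 for *Serpina1e*.
Serpina1a: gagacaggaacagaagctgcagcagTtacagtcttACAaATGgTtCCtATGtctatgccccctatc
Serpina1b: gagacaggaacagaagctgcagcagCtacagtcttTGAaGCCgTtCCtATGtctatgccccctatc
Serpina1c: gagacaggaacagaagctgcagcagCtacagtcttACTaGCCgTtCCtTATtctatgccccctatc
Serpina1d: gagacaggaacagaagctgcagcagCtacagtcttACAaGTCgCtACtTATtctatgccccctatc
Serpina1e: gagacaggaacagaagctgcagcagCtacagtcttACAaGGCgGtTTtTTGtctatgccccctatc

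The same region of 3 *Serpina3* genes is shown because only *Serpina3n* of the 3 passed the test along *Saa1* described further on, in which the difference between genes was not tested. It lies on the plus strand at chr12:104311522-104311590 for *Serpina3k*, chr12:104360022-104360096 for *Serpina3m* and chr12:104379701-104379775 for *Serpina3n*. Lower case marks the 29 opening bases that the 3 genes share and capitals the rest of the loop, in which *Serpina3k* is 6 bases shorter than the other two. Over the whole coding sequence, *Serpina3k* was 91.0% identical to *Serpina3m* and 82.6% to *Serpina3n*.
Serpina3k: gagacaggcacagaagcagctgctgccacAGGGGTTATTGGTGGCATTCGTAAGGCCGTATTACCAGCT
Serpina3m: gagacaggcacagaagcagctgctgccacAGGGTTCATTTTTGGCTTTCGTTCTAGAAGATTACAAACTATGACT
Serpina3n: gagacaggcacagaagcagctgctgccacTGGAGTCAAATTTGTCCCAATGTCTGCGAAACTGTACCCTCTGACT

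Reads from such copies can be assigned to the wrong gene. Windows of 150 bases, the read length, were therefore taken from the transcript that the annotation marks as canonical for each gene. The share found in no other gene's canonical transcript was counted. Other transcripts were not compared. It was 91.4% for *Serpina1e*, 81.6% for *Serpina1b*, 81.1% for *Serpina1d*, 59.3% for *Serpina1a* and 50.7% for *Serpina1c*. The levels of *Serpina1a* and *Serpina1c* are therefore the least certain of the 5. *Serpina3k* (99.88%) and *Serpina3m* (99.85%) were almost free of shared windows. *Serpina3g* had 47.0% of its own and shared the rest with the overlapping model *Gm56487*, and *Serpina11* had 78.1% and shared the rest with *Gm28577*. All remaining genes shared none.

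The targeted gene, *Fgl1*, had 158 FPKM in the lowest, 312 in the median and 1331 in the highest *Fgl1* LWT liver, against 13.2, 50.3 and 90.0 FPKM in *Fgl1* LKO livers, and the genotypes did not overlap. Hepatocyte markers (*Alb*, *Ttr*, *Apoa1*, *Cps1* and *Cyp2e1*) summed to between 47040 and 87000 FPKM, as liver tissue gives. The summed FPKM of all genes lay between 673153 and 786188 per library. The number of reads is not given in the table, so no counting error can be stated. The library names in the labels hold mouse numbers. These were grouped here into 4 runs of nearby numbers: 36 to 38, 48 to 55, 60 to 64 and 69 to 72. The labels name no such groups and do not say whether they were handled apart. Run 36 to 38 consists of *Fgl1* LWT mice 1, 2 and 3 alone. In these bulk samples fewer cells of a type and less RNA per cell cannot be told apart.

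Serpin RNA was a large part of the liver transcriptome. The 31 genes held between 6.45 and 8.39% of the summed FPKM, with a median of 7.72% in *Fgl1* LWT and 7.64% in *Fgl1* LKO livers. Members of clade A, 18 genes, made up 93.6% of the summed serpin level, and the 5 *Serpina1* genes alone 73.8%. Levels of single genes, compared per transcript length, spanned from 17938 FPKM on average for *Serpina1e*, which ranked 4 among all genes of the table, to 0.15 for *Serpina5*.

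**Figure D1:**
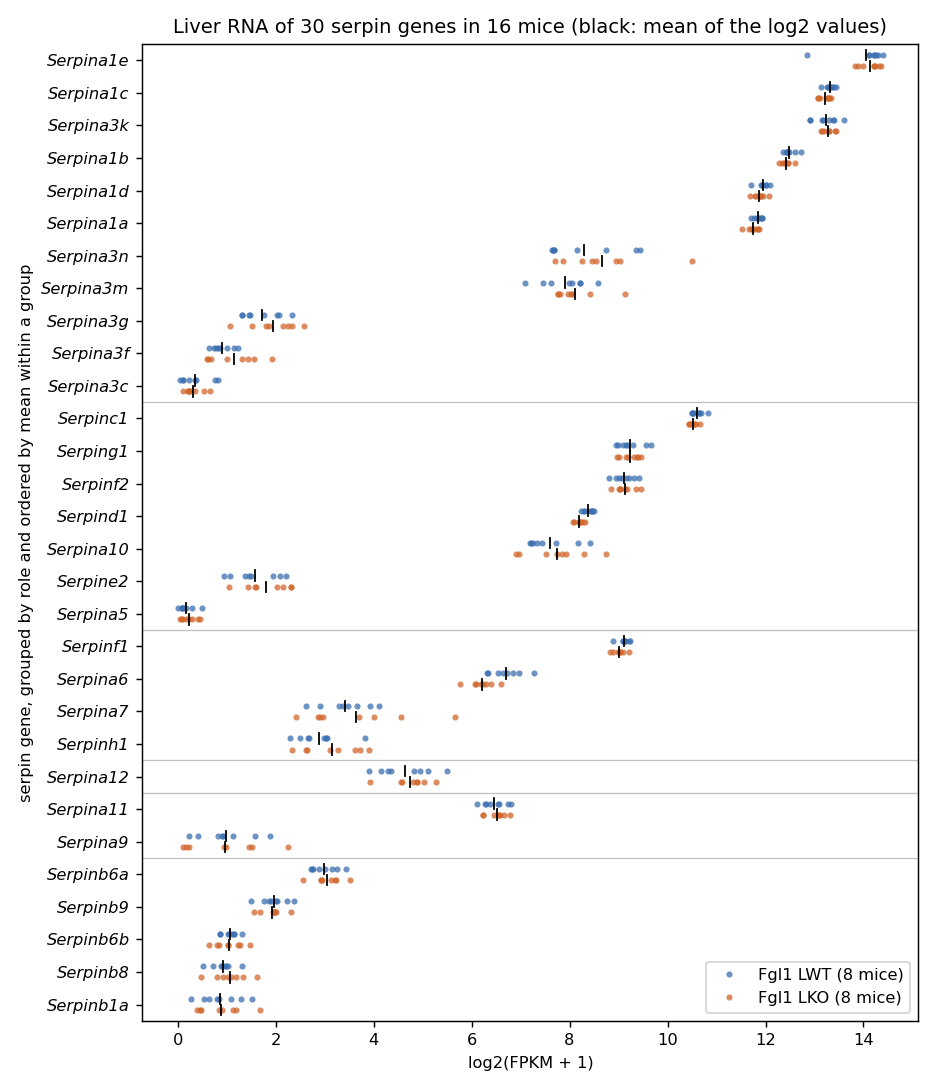
Level of 30 of the 31 serpin genes in each mouse, as log2(FPKM + 1) on the horizontal axis, with 1 point per mouse, *Fgl1* LWT in blue above *Fgl1* LKO in orange and the mean as a black bar. The *Serpina1* genes and *Serpina3k* lie above 11 on this scale, *Fgl1* LWT mouse 2 stands apart on the left for *Serpina1e*, and *Fgl1* LKO mouse 8 on the right for *Serpina3n* and *Serpina7*.

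Human alpha-1-antitrypsin protects tissue from neutrophil elastase and related proteases. The mouse copies differ in the loop that sets the target, and their targets were not tested here. *Serpina1e* had 7404 FPKM in the lowest, 19079.8 in the median and 21650.0 in the highest *Fgl1* LWT liver, and 14565, 18948 and 20929 FPKM in *Fgl1* LKO livers. The lowest value was that of *Fgl1* LWT mouse 2, while the other 15 livers lay between 14565 and 21650.0 FPKM. In that mouse the other 4 copies were within the range of the remaining livers, with 10793 FPKM for *Serpina1c* and 5532 for *Serpina1b*. Its summed *Serpina1* level, 31182 FPKM, was the lowest of 16, and *Serpina1e* made up 23.7% of it against 39.6 to 50.5% elsewhere. *Serpina1c* had 8996, 10194 and 11165 FPKM in *Fgl1* LWT and 8571, 9806 and 10344 FPKM in *Fgl1* LKO livers (lowest, median and highest, as in all such triplets here). *Serpina1b* had 5265, 5619 and 6764 against 4991, 5456 and 6215 FPKM. *Serpina1d* had 3351, 3939 and 4392 against 3309, 3775 and 4276 FPKM. *Serpina1a* had 3344, 3712 and 3908 against 2933, 3447 and 3719 FPKM. Apart from *Serpina1e* in the mouse named, these copies varied little from liver to liver, and the ranges of the genotypes overlapped for each.

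The *Serpina3* genes were less uniform. *Serpina3k*, whose product binds tissue kallikrein, had 7666, 9651 and 12349 FPKM in *Fgl1* LWT and 8988, 9985 and 11045 FPKM in *Fgl1* LKO livers, a level of the order of *Serpina1c*. *Serpina3n*, an inhibitor of granzyme B and cathepsin G known as an acute-phase protein, had 199, 244 and 688 FPKM in *Fgl1* LWT and 207, 362 and 1448 FPKM in *Fgl1* LKO livers. The value of 1448 FPKM was that of *Fgl1* LKO mouse 8, and no other *Fgl1* LKO liver was above 519. *Serpina3m* had a mean of 270.1 FPKM, with 562 in the same mouse and 135 to 379 in the other 15. *Serpina3g*, which acts on cathepsins inside leukocytes, averaged 2.73 FPKM, *Serpina3f* 1.11 and *Serpina3c* 0.281. The mean levels of *Serpina3* genes thus ran from 0.281 to 9818 FPKM within 1 cluster.

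**Figure D2:**
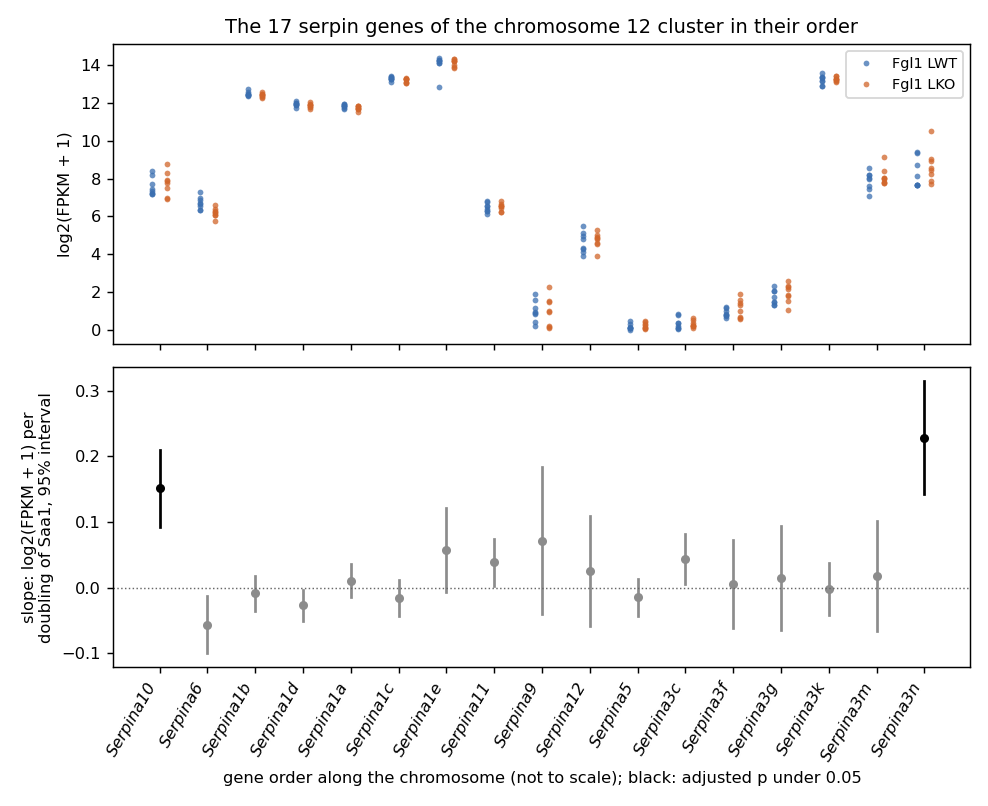
The 17 serpin genes of chromosome 12 in gene order, not to scale, with log2(FPKM + 1) of each mouse above (*Fgl1* LWT blue, *Fgl1* LKO orange) and the slope on *Saa1*, in log2(FPKM + 1) per doubling of *Saa1*, with its 95% interval below. Slopes past the adjusted threshold are black and belong to the first and last genes, *Serpina10* (0.15) and *Serpina3n* (0.23), while *Serpina3k* and *Serpina3m* next to *Serpina3n* lie near 0.

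Inhibitors of coagulation, fibrinolysis and complement were the next most abundant. *Serpinc1*, antithrombin, had 1446, 1539.9 and 1812 FPKM in *Fgl1* LWT and 1380.4, 1482 and 1623 FPKM in *Fgl1* LKO livers. *Serping1*, the C1 inhibitor that stops the first complement proteases and plasma kallikrein, had 494, 573 and 806 against 497, 613 and 707 FPKM. *Serpinf2*, alpha-2-antiplasmin, had 445, 554 and 679 against 459, 542 and 698 FPKM. The ranges of these 3 genes overlapped widely between the genotypes. *Serpind1*, heparin cofactor II, which inhibits thrombin, had 299, 341 and 363 FPKM in *Fgl1* LWT and 267, 294 and 319 FPKM in *Fgl1* LKO livers. *Serpina10*, which inhibits factor Xa together with protein Z, had 146, 166 and 343 against 119.8, 222 and 430.1 FPKM. *Serpine2* (protease nexin 1, mean 2.38 FPKM) and *Serpina5* (protein C inhibitor, 0.15) were low. *Serpina5* was the only member at 0 in a mouse.

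Among the members that do not act on proteases, *Serpinf1*, pigment epithelium-derived factor, had 470.3, 557 and 603 FPKM in *Fgl1* LWT and 454, 517 and 594 FPKM in *Fgl1* LKO livers. *Serpina6*, corticosteroid-binding globulin, which carries glucocorticoids in plasma, had 79.1, 102 and 155 FPKM against 53.2, 73.5 and 95.9. *Serpina7*, thyroxine-binding globulin, had 5.14, 9.79 and 16.3 against 4.36, 9.40 and 49.8 FPKM, the last in *Fgl1* LKO mouse 8. *Serpinh1*, the collagen chaperone of the endoplasmic reticulum, had 3.90, 6.14 and 13.2 against 4.04, 8.18 and 13.9 FPKM. Of the other clade A genes, *Serpina11* averaged 89.6 FPKM, *Serpina12* (vaspin) 26.0 and *Serpina9* 1.17, the last with 0.17, 0.88 and 2.70 against 0.08, 0.965 and 3.77 FPKM. The intracellular clade B members, which protect cells from their own or foreign granule and lysosomal proteases, together made up 0.0239% of the serpin level. *Serpinb6a* had a mean of 7.28 FPKM, *Serpinb9*, the granzyme B inhibitor, 2.90, *Serpinb6b* 1.1, *Serpinb8* 1.02 and *Serpinb1a*, an inhibitor of neutrophil elastase, 0.912.

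The first comparison asks whether the loss of hepatocyte *Fgl1* changed serpin RNA. No serpin gene passed the test. All 31 had overlapping genotypes, but the share of all genes that overlap was not counted, so this says nothing particular of the serpins. With limma on log2(FPKM + 1) over 12770 genes, 0 genes had an adjusted p under 0.05 (0.0% of those tested), so that 0 of 31 serpin genes is no more than the whole table gave. At an unadjusted p under 0.05, 2 of 31 serpin genes stood beside 895 of all genes, or 7.01%, a like share. *Fgl1* itself, with a log2 difference of -3.105 (SE 0.486), had an adjusted p of 0.0725 in this fit. The median log2 difference over the 31 serpin genes was 0.05, against 0.01 over all genes tested, with 19 members higher and 12 lower in *Fgl1* LKO livers.

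The 2 genes with an unadjusted p under 0.05 were both lower in *Fgl1* LKO livers. *Serpina6* differed by -0.50 on the log2 scale (SE 0.133, 95% interval -0.784 to -0.223), with a limma adjusted p of 0.66. All 8 *Fgl1* LKO livers lay below the *Fgl1* LWT median of 102 FPKM, and the mean was 73.7 ± 12.6 FPKM (SD, n = 8) against 106 ± 25.1 (SD, n = 8), with an exact permutation p of 0.00326, two-sided and not adjusted for the 31 genes. *Serpind1* differed by -0.19 (SE 0.0582, 95% interval -0.308 to -0.0632), with a limma adjusted p of 0.696. All 8 *Fgl1* LKO livers again lay below the *Fgl1* LWT median, with means of 293 ± 17.8 against 334 ± 22.7 FPKM (SD, n = 8 each, exact permutation p = 0.00218, two-sided, unadjusted). The smallest p this exact test can give, over 12870 splits of the mice, is 0.000155. Without the 3 mice of run 36 to 38, the *Serpina6* difference was -0.35 and that of *Serpind1* was -0.133. In that fit 1 of 31 serpin genes, in place of 2, had an unadjusted limma p under 0.05. The exact tests did not take the runs into account.

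The other 29 serpin genes differed by between -0.11 for *Serpina1a* and 0.37 for *Serpina3n* on the log2 scale. The 95% interval of *Serpina1a* ran from -0.26 to 0.05, and the exact test of its FPKM gave p = 0.0399, two-sided and unadjusted. For *Serpina3n* the interval ran from -0.41 to 1.15, its level varied from mouse to mouse within each genotype, and the difference was 0.10 without *Fgl1* LKO mouse 8. For *Serpina1e* it was 0.07 (95% interval -0.32 to 0.46) with all mice and -0.10 without *Fgl1* LWT mouse 2. For the abundant and steady inhibitors the intervals were narrow, from -0.22 to 0.06 for *Serpinc1*, -0.24 to 0.10 for *Serpina1b* and -0.20 to 0.22 for *Serpinf2*.

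**Figure D3:**
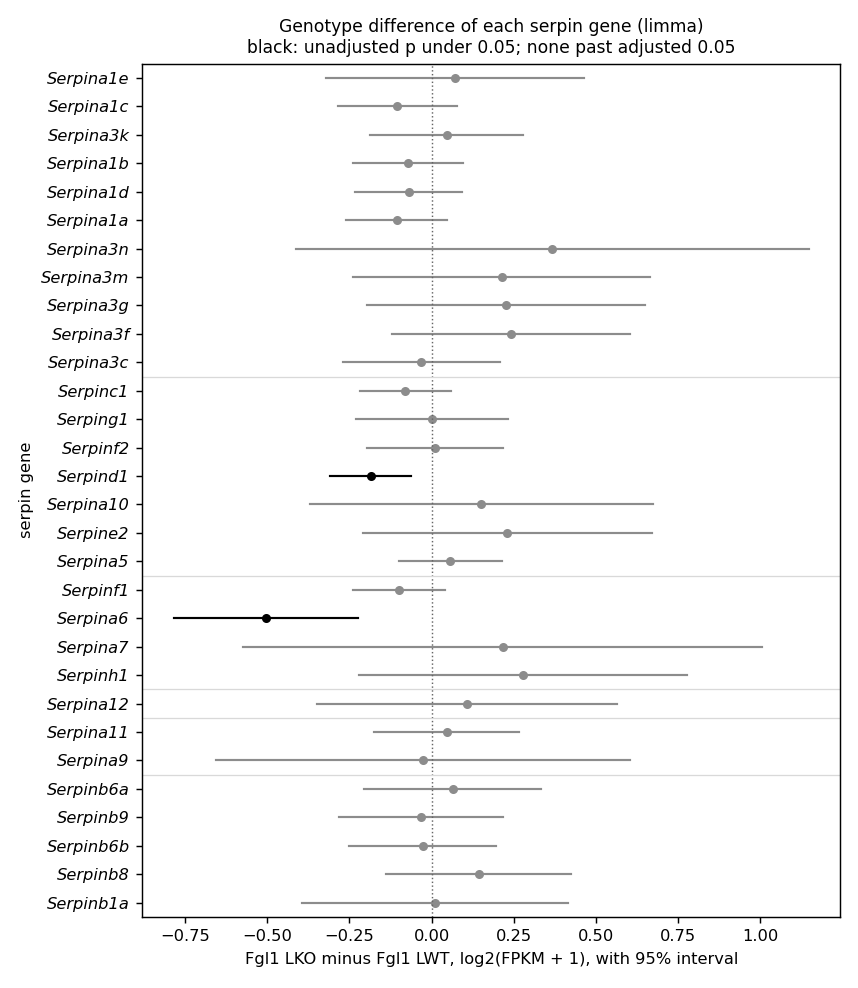
Difference of 30 of the 31 serpin genes between genotypes, as *Fgl1* LKO minus *Fgl1* LWT in log2(FPKM + 1), with its 95% interval from limma. Black marks *Serpina6* (-0.50) and *Serpind1* (-0.19), whose unadjusted p was under 0.05, and all other intervals drawn cross 0.

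For *Serpina3n* the SD among mice was 209 FPKM in *Fgl1* LWT and 402 in *Fgl1* LKO livers, and for *Serpina10* it was 74.4 and 102 FPKM, more than the genotype means differed in either case. The acute-phase state of the liver also differed widely among the mice. *Saa1*, serum amyloid A1, a standard acute-phase marker, ran from 63.8 to 16268 FPKM in *Fgl1* LWT and from 68.4 to 7669 FPKM in *Fgl1* LKO livers. Each gene was therefore also fitted on log2(*Saa1* + 1) with genotype as a further term. The slope is the change in log2(FPKM + 1) for each doubling of *Saa1*. In that fit 17 of the 22 other acute-phase genes listed rose with *Saa1* (limma adjusted p under 0.05), among them *Saa2*, *Lcn2* and *Orm2*, and 8 of 22 with the runs of mouse numbers as a factor.

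Of the 31 serpin genes, 3 rose with *Saa1* past the adjusted threshold and none fell, while 1.65% of the 12769 genes tested passed, 0.619% upward and 1.03% downward. *Serping1* had a slope of 0.07 (SE 0.0103, limma adjusted p = 0.00162), and its level followed *Saa1* in *Fgl1* LWT (Pearson's r = 0.937) and *Fgl1* LKO livers (r = 0.895). *Serpina3n* had a slope of 0.23 (SE 0.0408, limma adjusted p = 0.0103). Its 4 *Fgl1* LWT livers with the lowest *Saa1* all lay between 199 and 204 FPKM and the pair with the highest at 658 and 688 FPKM. *Serpina10* had a slope of 0.15 (SE 0.0279, limma adjusted p = 0.013), with 342.8 and 288 FPKM in that same pair and 146 to 172 FPKM in those 4 livers. For *Serpina10* r was 0.863 in *Fgl1* LWT and 0.818 in *Fgl1* LKO livers. Correlations are given as descriptions over 8 mice of a genotype, whose points share the *Saa1* values of the same libraries.

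**Figure D4:**
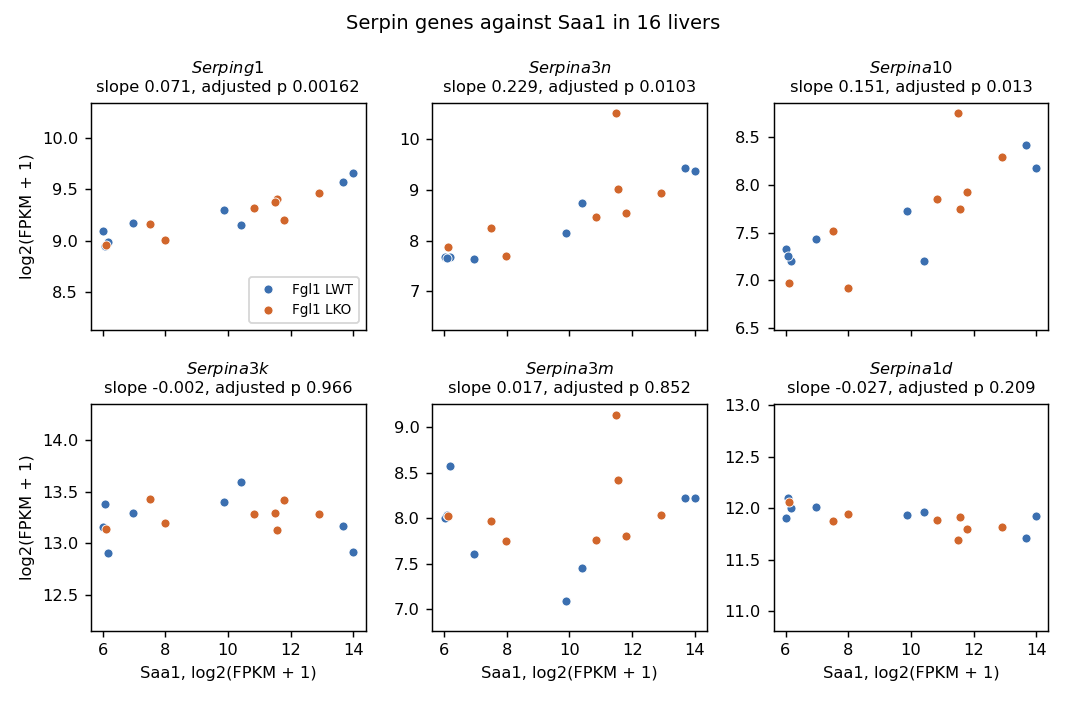
Level of 6 serpin genes against *Saa1*, both as log2(FPKM + 1), with 1 point per liver (*Fgl1* LWT blue, *Fgl1* LKO orange). *Serping1*, *Serpina3n* and *Serpina10* rise from left to right, with *Fgl1* LKO mouse 8 above the others for *Serpina3n*, *Serpina10* and *Serpina3m*, while *Serpina3k* shows no trend.

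Neighbouring genes did not pass the same test. *Serpina3k*, next to *Serpina3m* and *Serpina3n* on the chromosome, had a slope of -0.002 (SE 0.0187), and *Serpina3m* had 0.02 (SE 0.0396), with limma adjusted p of 0.966 and 0.852. Their 95% intervals ran from -0.0415 to 0.0374 and from -0.0663 to 0.101, which leave out the slope of *Serpina3n*, 0.23, although the difference between the slopes was not tested. The 5 *Serpina1* genes had slopes from -0.03 to 0.06, and none passed. *Serpinc1* (-0.01), *Serpind1* (-0.003) and *Serpinf2* (0.02) did not pass either. On the other side, *Serpinb1a* (-0.10, limma adjusted p = 0.0509) and *Serpinb6a* (-0.06, limma adjusted p = 0.0752) lay just outside the threshold. *Serpinb1a* passed it in 7 of 27 alternatives, among them a pseudocount of 0.1 (slope -0.214, limma adjusted p = 0.0441), and both passed it with an equal FPKM sum (limma adjusted p = 0.0356 and 0.0442). At an unadjusted p under 0.05 there were 10 of 31 serpin genes, beside 18.2% of all genes. Upward there were 5 of 31, beside 3.27% of all genes, with *Serpina3c* (0.04) and *Serpina11* (0.04) next to the 3 called. Downward there were also 5, beside 15.0% of all genes, a like share, with *Serpinf1* (-0.03), *Serpina6* (-0.06) and *Serpina1d* (-0.03) next to the 2 clade B genes. The median slope was -0.002 over the serpin genes and -0.01 over all genes.

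The 3 slopes kept their size and lost their call when the runs of mouse numbers entered the fit. With the run as a factor they were 0.07 for *Serping1*, 0.23 for *Serpina3n* and 0.18 for *Serpina10*, with limma adjusted p of 0.129, 0.09 and 0.11. Without run 36 to 38, an alternative chosen after seeing the data, they were 0.07, 0.24 and 0.18, with adjusted p of 0.0667, 0.129 and 0.0935. Without *Fgl1* LWT mouse 5 only *Serping1* was called, with adjusted p of 0.0565 for *Serpina3n* and 0.0716 for *Serpina10*. For the interaction of genotype and *Saa1*, also added after seeing the data, 0 of 31 serpin genes had even an unadjusted p under 0.05, beside 7.92% of all genes, and 0 of all genes passed after adjustment. Marker lists of other cell types moved with *Saa1* as well. The summed level of the 5 neutrophil markers, of which *S100a8* and *S100a9* made up nearly all and *Ly6g*, *Mpo* and *Elane* were near 0, ran from 0.93 to 32.0 FPKM in *Fgl1* LWT and from 3.03 to 26.0 in *Fgl1* LKO livers and correlated with *Saa1* (r = 0.744, 16 mice). The 5 endothelial markers (r = -0.693), the 5 stellate markers (r = -0.622) and the 5 hepatocyte markers (r = -0.802) ran the other way. Most of the hepatocyte sum was *Alb* (41750 FPKM on average), whose own r with *Saa1* was -0.79. The mast cell markers also ran this way (r = -0.726), at no more than 1.14 FPKM in sum. The part of these lists in the serpin slopes was not tested.

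Several serpin genes varied together from mouse to mouse. Over the 351 pairs among the 27 serpin genes that averaged 1 FPKM or more, the median size of Pearson's r was 0.329, and 8 pairs exceeded 0.8 in size. These values are descriptions over 16 livers that share library, scaling and acute-phase state, and the pairs named were chosen after their values were seen. Pairs of other genes were not computed, so the median and the count say nothing particular of the family. *Serpina3n* and *Serpina10* had r = 0.872, and *Serping1* and *Serpina10* 0.854. *Serpina1d* and *Serpinf1* ran together (0.852), and *Serpina1d* ran against *Serpina10* (-0.836). A further group held *Serpina3f*, *Serpina3g* and *Serpinh1*. *Serpina3f* and *Serpina3g*, neighbours on chromosome 12, had r = 0.858. *Serpinh1*, on chromosome 7, had 0.837 with *Serpina3f* and 0.817 with *Serpina3g*. Without *Fgl1* LKO mouse 8 these 3 values were 0.829, 0.841 and 0.786. Of this group, the highest *Serpinh1* levels were 13.9 FPKM in *Fgl1* LKO mouse 2, 13.2 in *Fgl1* LWT mouse 4, 12.2 in *Fgl1* LKO mouse 8 and 11.25 in *Fgl1* LKO mouse 1, and the same 4 livers held the 4 highest *Serpina3g* levels, 4.96 to 3.79 FPKM. *Serpina3f* was highest in the 3 *Fgl1* LKO livers of these, with 2.80, 1.96 and 1.70 FPKM, but *Fgl1* LWT mouse 4 (1.35) lay below *Fgl1* LKO mouse 3 (1.5). None of these 3 genes had a slope on *Saa1* past the threshold.

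**Figure D5:**
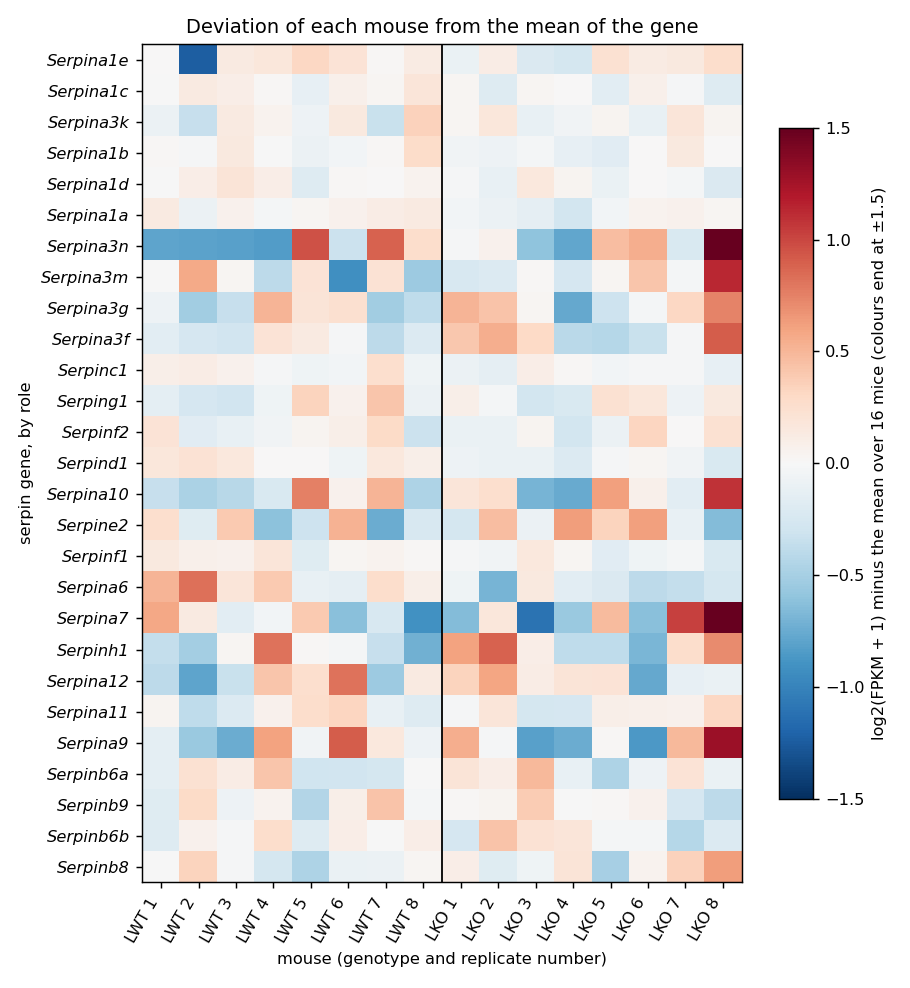
Deviation of each mouse (columns, *Fgl1* LWT left of the line and *Fgl1* LKO right of it) from the gene's mean over 16 mice in log2(FPKM + 1) for the 27 serpin genes that averaged 1 FPKM or more, red above and blue below, with colours ending at 1.5. *Fgl1* LKO mouse 8 is red for *Serpina3n*, *Serpina3m*, *Serpina10*, *Serpina7* and *Serpina9*, *Fgl1* LWT mouse 2 is blue for *Serpina1e*, and the 4 livers named in the text are red together for *Serpina3g* and *Serpinh1*.

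Promoters of *Serpina3f* and *Serpina3g* are shown because these neighbours moved together. They are RefSeq sequences (GRCm38.p6, a build older than that of the files) from 250 bases before to 50 after the start, 5′ to 3′ on the plus strand, at chr12:104214294-104214593 for *Serpina3f* and chr12:104235897-104236196 for *Serpina3g*. Capitals mark a match to TTCNNNGAA, the palindrome that STAT proteins bind.
Serpina3f: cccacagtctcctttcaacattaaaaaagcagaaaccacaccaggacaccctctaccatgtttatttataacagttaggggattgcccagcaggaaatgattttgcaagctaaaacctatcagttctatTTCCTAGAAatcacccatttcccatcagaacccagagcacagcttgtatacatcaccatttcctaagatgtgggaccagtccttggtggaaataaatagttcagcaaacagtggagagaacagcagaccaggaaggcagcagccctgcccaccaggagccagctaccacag
Serpina3g: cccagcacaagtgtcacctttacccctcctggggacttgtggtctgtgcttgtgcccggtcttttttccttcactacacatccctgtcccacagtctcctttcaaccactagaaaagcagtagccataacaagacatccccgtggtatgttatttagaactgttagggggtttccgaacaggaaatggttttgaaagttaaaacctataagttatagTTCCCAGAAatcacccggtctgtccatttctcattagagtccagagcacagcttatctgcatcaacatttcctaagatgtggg

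Of the 31 serpin genes, 23 had an entry in the promoter set. On both strands, TTCNNNGAA was found for 4 of the 23 genes (*Serpina3f*, *Serpina3g*, *Serpina11* and *Serpinb6a*) and in 8.33% of all 32544 promoters, and TTNNGNAA, letters found in sites of the C/EBP family, for 18 of the 23 and in 40.7% of all. Genes with several promoters counted once if any matched, and the *Serpina3n* promoter held no TTCNNNGAA. A match of letters is a description and no proof of binding.

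*Fgl1* LKO mouse 8 had the highest level of 16 livers for 8 of the 31 serpin genes, *Serpina3n*, *Serpina3m*, *Serpina10*, *Serpina7*, *Serpina3g*, *Serpina9*, *Serpina3f* and *Serpinb8*. How often this mouse was highest over all genes was not counted, so the 8 cannot be read as a trait of the serpins. Against the median of the other 15 livers the level of this mouse was 5.31 times as high for *Serpina7*, 4.78 times for *Serpina3n* and 2.36 times for *Serpina10*. It was the lowest of 16 for *Serpina1c*, *Serpina1d*, *Serpinf1* and *Serpind1*, by far smaller margins (0.835 to 0.858 of that median). Its *Saa1* level, 2890.3 FPKM, was exceeded in 5 livers. The summed level of the 5 cholangiocyte markers was 262 FPKM in this mouse and 24.7 to 83.5 in the others, almost all from *Spp1* (255 FPKM). This mouse was also the highest for 2 more of the 13 marker lists, with 137 FPKM against 51.7 to 117 for Kupffer cells and 1.43 against 0.26 to 1.07 for T and NK cells. *Epcam* was also highest there, while *Krt19*, *Krt7* and *Sox9* were within the range of the other mice. The part of these values in the serpin levels of this mouse was not tested.

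The proteases and partners on which serpins act were taken from a list of 56 genes, of which 50 reached a mean of 0.1 FPKM. By genotype 0 of 50 passed the adjusted threshold and 4 had an unadjusted p under 0.05, beside 7.01% of all genes, a like share that says nothing particular of the list. These 4 were *Ctsh*, cathepsin H (log2 difference -0.17), *Kng2*, a kininogen (-0.20), and *C1s1*, a C1 protease that *Serping1* inhibits (-0.12), all lower in *Fgl1* LKO livers, and *Gzmb*, granzyme B (0.13, at 0.201 FPKM on average). Along *Saa1*, 7 of 50 rose and none fell (limma adjusted p under 0.05), beside 0.619% of all genes upward and 1.03% downward. With the run as a factor 1 gene of the list passed. Leaving out run 36 to 38 gave 2 genes, and leaving out *Fgl1* LWT mouse 2, 3, 5 or 7 gave 4. The 5 largest slopes were those of *Prtn3* (0.45), proteinase 3 of neutrophils, the inter-alpha-trypsin inhibitor heavy chains *Itih4* (0.18) and *Itih3* (0.17), complement *C4b* (0.11) and *Ambp* (0.10), the light chain precursor of the same inhibitors. *C2* (0.08), cleaved by the C1 protease complex, and *Vtn* (0.05), vitronectin, were the others. *Prtn3* was low, with a mean of 4.29 FPKM, and had 0.0, 0.99 and 26.4 FPKM in *Fgl1* LWT and 0.0, 1.76 and 7.47 FPKM in *Fgl1* LKO livers. *Itih3* and *Itih4* also stand in the acute-phase list. *C4b* and *C2*, substrates of the C1 complex, were among those that rose, as was its inhibitor *Serping1*, while *C1s1* had a slope of 0.01 (limma adjusted p = 0.669). The median slope of the list was 0.01, against -0.01 over all genes.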

How the data were processed

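RNA was sequenced from the liver of 8 *Fgl1* LWT and 8 *Fgl1* LKO mice with a DNBSEQ stranded mRNA library for each. The authors deposited 1 table of FPKM values, rounded to 2 decimals and written with decimal commas, so that only its layout and not its unit could be checked by code. Per the labels and the paper's methods, reads were aligned with HISAT to mm39 and with Bowtie2 to reference genes. Versions, counting and annotation release are not given in the sources used here.

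FPKM are not counts, so no count test was used. A pseudocount of 1 was added to each value before taking log2, so that fold changes are on the log2(FPKM + 1) scale and understate those of low genes. The 12770 genes that averaged 0.1 FPKM or more were kept and fitted with limma 3.58.1 in R 4.3.3 (eBayes with a trend in the variance). Tests were two-sided, and p-values were adjusted over all genes by Benjamini-Hochberg, with 0.05 as the threshold. Genotype was fitted alone, and *Saa1* with genotype as a further term. Single genes were also compared by exact permutation tests of the mean FPKM. The limma steps were also run on simulated data with errors drawn independently for each gene and mouse. Such errors hold no effect of runs and no variation shared between genes, so the part of these was not tested. Python 3.11.15 with numpy 2.4.6, pandas 2.3.3 and scipy 1.17.1 was used for the rest. Replicates are separate mice, no libraries were identical, and intervals cover the spread between mice only.

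All members but 1, which is counted with the others but not reported here by name, are placed by role with their mean. Those described with lowest, median and highest values are the genes past the threshold in either fit, those with an unadjusted p under 0.05 for genotype, the 12 with the highest mean and the 5 with the largest spread within genotypes among those that averaged 1 FPKM or more. *Serpina3m*, *Serpina3f* and *Serpina3g* were added after their values were seen. Members and lists were chosen with earlier results of these data known. Of the target and partner list, genes with an unadjusted p under 0.05 for genotype and those past the threshold on *Saa1* are named. Coding sequences were aligned with Biopython 1.88. Alternatives were other pseudocounts, filters, scalings, weights and terms, and leaving out mice.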

Additional observations from a re-analysis of the deposited data

Results flagged for a closer look

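Each of the 31 serpin genes was checked in each genotype for a single distant mouse. The distance from the highest or lowest of the 8 mice to the next one was taken as a share of the whole range of log2(FPKM + 1). Of 62 groups 3 exceeded Dixon's 95% limit, and chance alone gives about 1 in 20 groups. *Serpina1e* in *Fgl1* LWT mouse 2 was 7403.92 FPKM against 17618 to 21650.0 in the other 7 (gap 0.808 of the range). *Serpinf1* in *Fgl1* LWT mouse 5, which had high *Saa1* (13092 FPKM), was 470.3 FPKM against 541 to 603 in the other 7 (0.566). *Serpina3n* in *Fgl1* LKO mouse 8 was 1448.14 FPKM against 207 to 519 in the other 7 (0.528).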

How the results depend on the processing

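By genotype, 0 serpin genes passed under each of the 29 alternatives run. Over all genes the count was 1 in place of 0, the gene being *Fgl1*, with an equal FPKM sum, with the mouse-number run as a factor, with the replicate block, without run 36 to 38 and with *Saa1* as a covariate. The *Serpina6* and *Serpind1* differences kept their sign throughout (-0.56 to -0.35 and -0.21 to -0.13). The *Serpina3n* difference was -0.0049 without run 36 to 38, and that of *Serpina1e* -0.00392 with array weights, -0.107 with the run as a factor, -0.128 without run 36 to 38 and -0.101 to 0.12 when each mouse was left out in turn. Along *Saa1*, where 3 serpin genes and 211 of all genes passed, the counts were 5 (3 up, 2 down) and 471 with an equal FPKM sum, 1 and 101 in *Fgl1* LWT mice only, 0 and 5 in *Fgl1* LKO mice only, 0 and 20 with the run as a factor, and 0 and 25 without run 36 to 38. Both one-genotype fits use 8 mice. With no filter on low values, added after seeing the data, 140 of all genes passed. Leaving out each mouse gave 1 to 4 serpin genes and 45 to 463 of all genes, the lowest without *Fgl1* LWT mouse 5 and the highest without *Fgl1* LKO mouse 7. Of all genes called, 37.4% rose, against 68.1% with median-ratio scaling and 15.5% with an equal sum, where *Serpina3n*, *Serpina10* and *Serping1* still rose. The near-zero slopes changed sign for *Serpina3k* with median-ratio scaling (0.0132), in *Fgl1* LKO mice only (0.00956) and when single mice were left out (-0.0121 to 0.0157), and for *Serpina3m* in *Fgl1* LWT mice only (-0.0034). The causes were not tested. The share of summed FPKM in serpin genes had a median of 7.64%, and 6.91% with the 10 highest genes, *Serpina1e* among them, left out.

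The labels do not say whether mice of the same replicate number are paired. Deviations of same-numbered mice correlated by -0.161 to 0.446 (mean 0.0728, against -0.00982 for other pairs). Of these 8 pairs 3 exceeded 0.1, and the difference from other pairs was not tested. With the replicate block, 0 serpin genes and 3 of all genes passed along *Saa1*, with slopes of 0.06 for *Serping1*, 0.18 for *Serpina3n*, 0.115 for *Serpina10* and -0.0103 for *Serpina3m*, and 1 gene passed by genotype.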

Other observations

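The values of 3 serpin genes that did not pass either test are given here and were chosen after they were seen. *Serpina12*, vaspin, an adipokine that inhibits kallikrein 7, had 13.9, 23.4 and 44.4 FPKM (lowest, median and highest) in *Fgl1* LWT and 14.1, 27.6 and 37.7 FPKM in *Fgl1* LKO livers, with a slope on *Saa1* of 0.03 (SE 0.0399). *Serpinb1a* had 0.21, 0.765 and 1.85 against 0.31, 0.835 and 2.19 FPKM, with lower levels at higher *Saa1* in both genotypes (r = -0.705 and -0.753, 8 mice each, as a description). *Serpinb6a* had 5.62, 6.74 and 9.84 against 4.93, 7.22 and 10.4 FPKM and ran the same way (r = -0.701 and -0.712).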
